A study of Mus musculus with 7 samples.

Results

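The Hedgehog pathway genes described here are 9 genes of the mouse: the ligands Shh, Ihh and Dhh, the receptors Ptch1 and Smo, the ligand trap Hhip and the transcription factors Gli1, Gli2 and Gli3. They were listed by name, all 9 were found among 21887 protein-coding genes of the RefSeq annotation of GRCm38, and each was examined over its gene body with 10 kb added on each side. Globose basal cells, the dividing progenitors of the olfactory epithelium, were profiled by chromatin immunoprecipitation and sequencing for H3K27me3, which Polycomb Repressive Complex 2 deposits at silent genes, and for H3K27ac, a mark of active promoters and enhancers. The mice were wild-type adults, used 7 to 10 days after a lesion made with methimazole, a drug that destroys the olfactory epithelium and sets off its regrowth. Each replicate is a pool of 3 mice, whose dissociated cells were enriched with magnetic beads against c-Kit, so a library holds whatever cells that selection kept. Each mark had 2 libraries, there was no other genotype, treatment or time, and the strain is not given in the labels.

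Hedgehog ligands are secreted proteins that bind Ptch1. Free of ligand, Ptch1 keeps the membrane protein Smo inactive. Ligand binding releases Smo, which acts in the primary cilium and turns the Gli proteins into transcriptional activators, while Gli3 without signal is mainly processed to a repressor. Ptch1, Gli1 and Hhip are themselves classical targets of the signal, and Ptch1 and Hhip dampen it by taking up ligand.

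The 4 peak lists held 64279 to 95749 peaks. The read depth behind them is unknown, and a missing peak means only that none passed the authors' threshold. As a check on the cells, all 10 listed globose basal cell genes, among them Kit and Neurog1, had H3K27ac peaks in both libraries within 1 kb of a start, against 61.5% of all protein-coding genes. Of them, 8 also had H3K27me3 there, against 26.7% of all genes for H3K27me3 and 16.3% for both marks. By the same rule H3K27ac was at 1 of 5 genes of mast cells, which also bear c-Kit (Hdc), and at 3 of 5 leukocyte, 4 of 5 sustentacular, 4 of 5 mature neuron, 3 of 6 horizontal basal cell, 2 of 5 glia, 2 of 4 Bowman's gland and 3 of 5 stroma and endothelium genes. The part of other cells in the results below was not tested.

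H3K27me3 was found at every one of the 9 genes and H3K27ac at 6 of them. The rule asked for a peak in each library of the mark that touched the window by at least 1 bp. By this rule H3K27me3 was at 9 of 9 genes, against 53.8% of all protein-coding genes, and at peaks with a −log10 q of at least 2 it was still at 9 of 9, against 30.6%. H3K27ac was at 6 of 9 (Dhh, Ptch1, Smo, Gli1, Gli2 and Gli3), against 72.1% of all genes, a share near that background. The same 6 genes carried both marks, against 43.6%. Shh was the 1 member with H3K27me3 and no H3K27ac peak in either library, a state held by 7.19% of all genes. Windows are longer for long genes: the share of all genes with H3K27me3 was 48.2% for genes up to 20 kb (Shh, Ihh, Dhh and Gli1), 55.2% for those of 20 to 100 kb (Ptch1, Smo and Hhip) and 77% above 100 kb (Gli2 and Gli3).

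**Figure D1:**
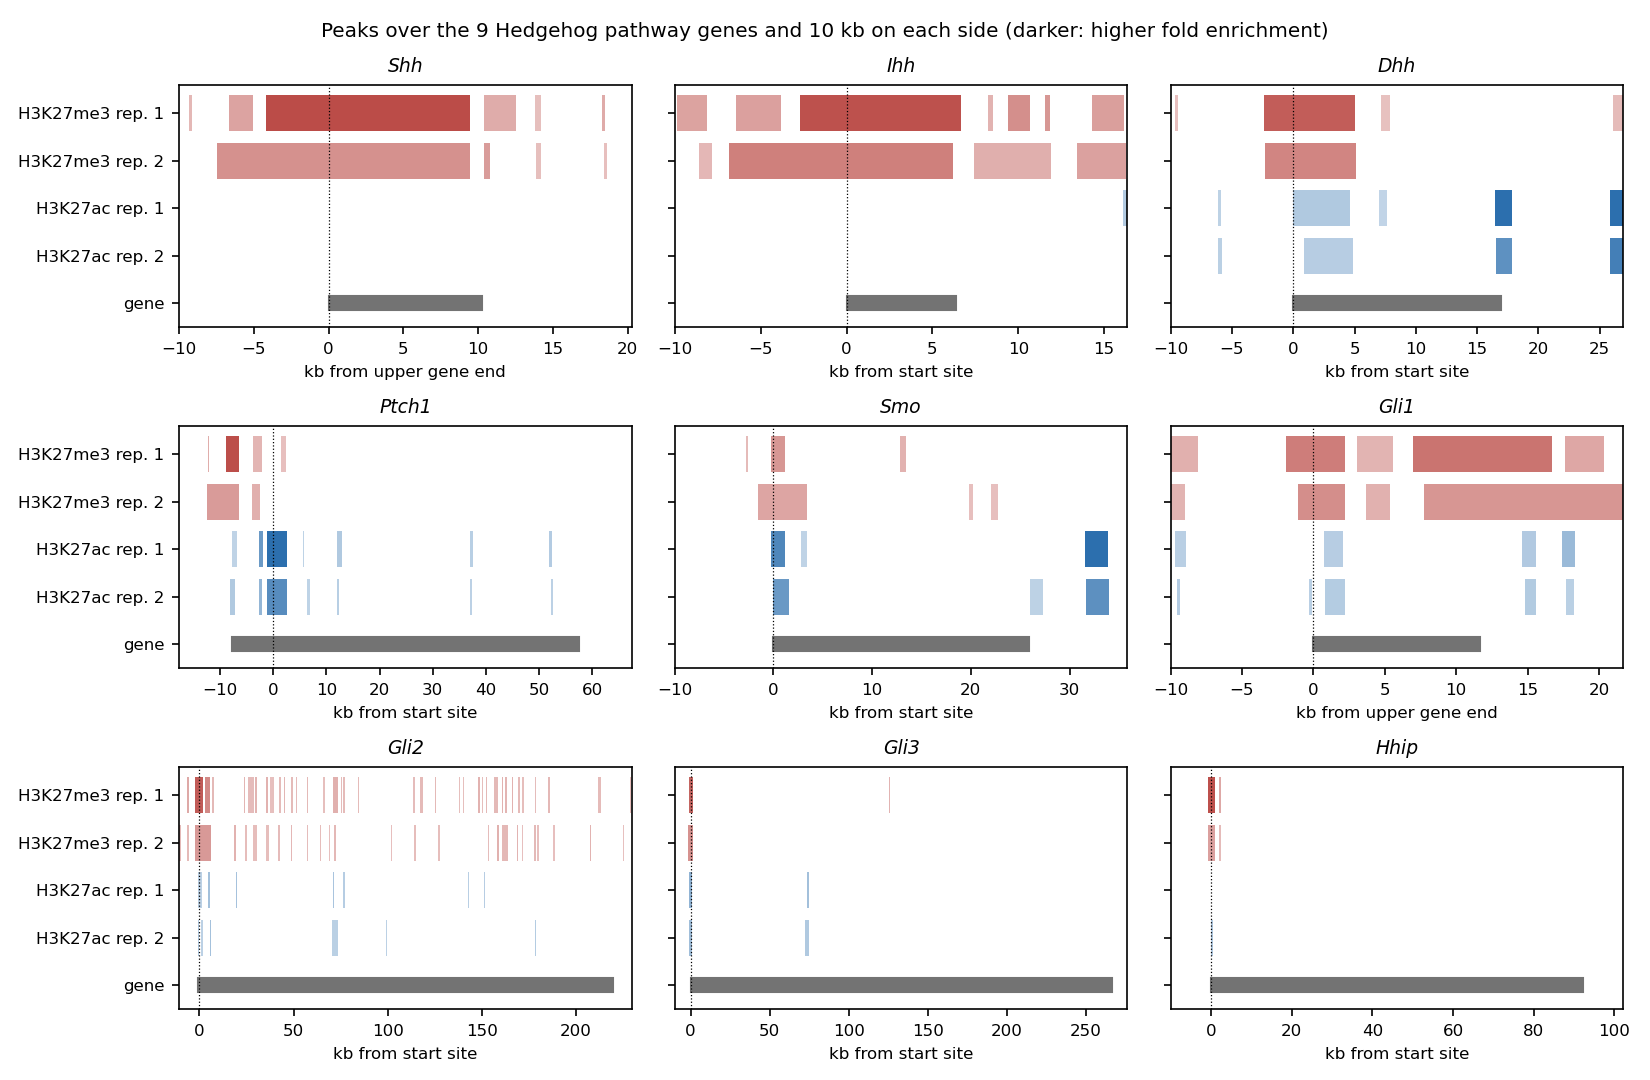
Peaks of the 4 libraries (rows; red H3K27me3, blue H3K27ac) over each gene (grey bar) and 10 kb on each side, plotted as kb from the start site in the direction of transcription, or from the upper gene end for Shh and Gli1; darker colour is a higher fold enrichment, and the narrowest peaks are widened to be visible. Broad H3K27me3 covers most of the windows of Shh, Ihh and Gli1, while at Gli3 and Hhip it is a narrow block at the start.

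Near gene starts H3K27me3 was still on most of the 9 genes, while the count with H3K27ac was near the share of all genes. Within 1 kb of the annotated start, H3K27me3 was at 8 of 9 genes, all but Ptch1, against 26.7% of all genes, and H3K27ac was at the same 6 genes as before, against 61.5%. Both marks were at 5 starts (Dhh, Smo, Gli1, Gli2 and Gli3), against 16.3%. For Shh and Gli1, which have no entry in the table of starts, either gene end was used. Ptch1 was counted at its listed start alone, which lies 7725 bp inside its gene record. H3K27me3 lay over the outer end of that record in both libraries. Over the whole window again, but with peaks limited to a −log10 q of 5 or more in both libraries, H3K27me3 was at 5 genes (Shh, Ihh, Dhh, Gli1 and Gli3), against 6.44% of all genes, and H3K27ac at 3 (Dhh, Ptch1 and Smo), against 55.5%. Dhh passed this threshold for H3K27ac only through peaks at Rhebl1 and Kmt2d, since the peak at its own start had a −log10 q of 3.52 and 1.82. There is no second condition and there are 2 libraries per mark, so no test across samples was made, and these shares are descriptions.

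CpG-rich promoters are where Polycomb complexes are known to settle in mammals. Of the 9 genes, 7 matched an entry of the RefSeq promoter table of GRCm38.p6, which gives 250 bases before and 50 after the start. A median promoter of a protein-coding gene in that table held 13 CpG dinucleotides, with quartiles of 4 and 24. The counts were 30 for Ihh, 12 for Dhh, 47 for Ptch1, 17 for Smo, 28 for Gli2, 39 for Gli3 and 30 for Hhip, so 5 of the 7 stood above the upper quartile. The 4 promoters below show the range of marks: Ihh lay wholly under H3K27me3, Ptch1 wholly under H3K27ac, Gli3 wholly under both marks in all 4 libraries, and Dhh, with the fewest CpGs, wholly under H3K27me3. Each runs 5′ to 3′ along its gene's strand, and capitals mark CpG dinucleotides.
Ihh (chr1:74951623-74951922, minus strand): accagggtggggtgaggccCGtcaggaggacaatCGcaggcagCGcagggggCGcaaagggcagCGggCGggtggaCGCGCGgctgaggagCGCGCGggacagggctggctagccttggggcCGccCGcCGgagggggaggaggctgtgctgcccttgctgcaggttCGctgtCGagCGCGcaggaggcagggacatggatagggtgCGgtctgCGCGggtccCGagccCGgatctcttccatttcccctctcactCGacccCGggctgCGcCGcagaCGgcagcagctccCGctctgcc
Ptch1 (chr13:63565686-63565985, minus strand): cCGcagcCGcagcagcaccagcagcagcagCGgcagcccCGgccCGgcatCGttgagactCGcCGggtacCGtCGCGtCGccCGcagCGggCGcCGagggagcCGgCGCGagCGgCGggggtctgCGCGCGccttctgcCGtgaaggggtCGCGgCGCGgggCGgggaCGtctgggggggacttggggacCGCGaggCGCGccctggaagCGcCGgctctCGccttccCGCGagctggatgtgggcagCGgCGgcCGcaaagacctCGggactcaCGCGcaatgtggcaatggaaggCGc
Gli3 (chr13:15463473-15463772, plus strand): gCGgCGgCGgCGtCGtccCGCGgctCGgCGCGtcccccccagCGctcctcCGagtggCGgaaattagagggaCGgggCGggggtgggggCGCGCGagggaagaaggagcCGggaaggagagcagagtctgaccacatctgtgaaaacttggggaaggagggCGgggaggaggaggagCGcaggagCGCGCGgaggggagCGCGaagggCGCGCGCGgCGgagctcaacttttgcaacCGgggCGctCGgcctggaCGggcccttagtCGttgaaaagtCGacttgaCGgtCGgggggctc
Dhh (chr15:98898491-98898790, minus strand): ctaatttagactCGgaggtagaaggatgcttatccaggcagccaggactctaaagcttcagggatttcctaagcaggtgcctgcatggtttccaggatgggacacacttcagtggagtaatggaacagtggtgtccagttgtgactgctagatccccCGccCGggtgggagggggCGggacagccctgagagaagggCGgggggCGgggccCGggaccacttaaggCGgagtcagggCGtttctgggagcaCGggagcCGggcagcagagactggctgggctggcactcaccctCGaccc

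The core of the Gli binding motif, GACCACCCA, was searched on both strands (the reverse is TGGGTGGTC). None of the 7 promoters held it, and 0.179% of all 21263 promoters of protein-coding genes in the table did, so these letters are rare in windows of this length.

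The ligand genes Shh and Ihh, with Gli1, had the widest H3K27me3 peaks, that of Gli1 reaching over an end of Arhgap9. The ligands had low or no H3K27ac at their own starts. Shh, the ligand of neural tube and limb patterning (chromosome 5, 28456840 to 28467101), had 6 H3K27me3 peaks in replicate 1 and 4 in replicate 2. Its main peak was 13647 bp wide with a fold enrichment over background of 10.4 in replicate 1, and 16917 bp wide with a fold enrichment of 5.81 in replicate 2. These folds are the authors' own values of a peak and are compared only within a list. In each library this peak covered the upper gene end, and peaks covered 91.9% and 92.3% of the gene body. Among all genes with a peak in the library, the highest fold at Shh stood at percentile 97 and 92.3 and its widest peak at percentile 98.4 and 97.7. No H3K27ac peak lay in the window in either library.

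Ihh, the ligand of growing cartilage and gut (chromosome 1, 74945315 to 74951672), was covered in a like way, with 7 and 4 H3K27me3 peaks in the window. A single H3K27me3 peak of 9348 bp in replicate 1 (fold enrichment 10) and of 13048 bp in replicate 2 (6.96) ran over the whole promoter. Peaks covered 100% and 97.5% of the gene body. The highest fold stood at percentile 96.2 and 97. The only H3K27ac peak in the window was 249 bp wide, in replicate 1 alone (3.42), and lay at the end of the neighbouring gene Cfap65 rather than at Ihh.

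Dhh, the ligand of Sertoli and Schwann cells (chromosome 15, 98881615 to 98898562), differed from the other ligands in having both marks at its start. One H3K27me3 peak covered the start in each library, from -2.37 to 5.06 kb in replicate 1 (fold enrichment 9.25) and from -2.27 to 5.14 kb in replicate 2 (6.6). Inside it lay a low H3K27ac peak, from -0.04 to 4.62 kb in replicate 1 (3.62) and from 0.84 to 4.83 kb in replicate 2 (3.19). The 2 H3K27ac libraries thus shared 3779 bp there, and all of these bases were also under H3K27me3 in both libraries. The strongest H3K27ac in the window was not at Dhh's start: a peak of 12.8 and 8.79 lay across the far end of the Dhh gene record and the end of Rhebl1 beside it, and a peak of 12.6 and 10.5 lay inside the gene body of Kmt2d (named after its value was seen). The highest H3K27ac folds in this window are therefore at or within other genes, and which gene the peak shared with Rhebl1 belongs to cannot be told from its position.

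**Figure D2:**
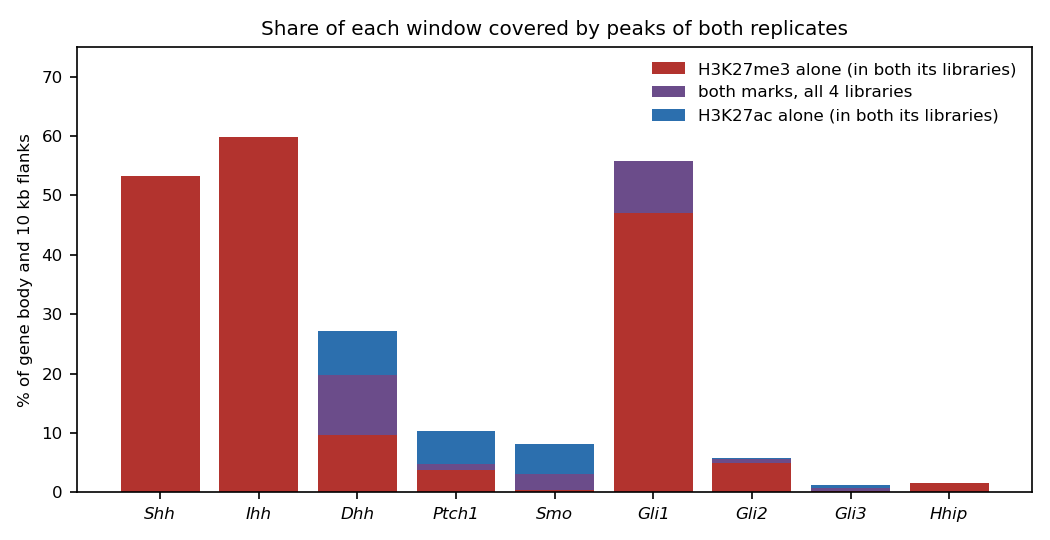
Share of each gene's window (gene body and 10 kb flanks, in %) covered in both libraries of H3K27me3 alone (red), of H3K27ac alone (blue), or of both marks in all 4 libraries (purple). H3K27me3 covered 53.2% of the Shh, 59.8% of the Ihh and 55.9% of the Gli1 window, and 1.56% of that of Hhip.

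The receptors carried the strongest H3K27ac at their own starts, and at Ptch1 the strongest peaks of the marks lay apart. Ptch1 encodes the ligand receptor (chromosome 13, 63508328 to 63573460, minus strand). Its start in the promoter table lies 7725 bp inside the outer end of its gene record. H3K27ac covered the inner start, from -1.19 to 2.67 kb in replicate 1 (fold enrichment 13.5) and from -1.24 to 2.62 kb in replicate 2 (9.3), with a smaller peak just upstream (8 and 5.4). H3K27me3 instead peaked over the outer end, from -8.90 to -6.46 kb in replicate 1 (10.2) and from -12.52 to -6.49 kb in replicate 2 (5.14). A weaker H3K27me3 peak between them, from -3.88 to -2.14 kb in replicate 1 (3.47) and from -3.94 to -2.49 kb in replicate 2 (3.84), shared 202 bp with the upstream H3K27ac peak in all 4 libraries. No H3K27me3 peak of either library came within 1 kb of the inner start, although a weak one in replicate 1 alone lay at 1.49 to 2.44 kb (2.78). Over the outer end a low H3K27ac peak was also present (2.69 and 3.65). Of 5719 bp with H3K27ac in both libraries, 867 bp, or 15.2%, were also under H3K27me3. Further into the gene, H3K27ac was found in both libraries in 3 short stretches, at 11.99 to 12.18, 37.08 to 37.39 and 52.27 to 52.43 kb, with no H3K27me3 peak at any of them.

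Smo, the signalling membrane protein (chromosome 6, 29735497 to 29761366, plus strand), had both marks over its start. At its start H3K27ac stood at a fold enrichment of 9.79 and 8.06 and H3K27me3 at 5.47 and 4.51. In replicate 1 the H3K27me3 peak ran from -0.27 to 1.16 kb and the H3K27ac peak from -0.26 to 1.16 kb. In replicate 2 the H3K27me3 peak was wider, from -1.53 to 3.43 kb, and the H3K27ac peak ran from -0.08 to 1.53 kb. Peaks of all 4 libraries shared 1236 bp, which is 86.9% of the bases with H3K27me3 in both libraries. The bases with H3K27me3 in both were 62.5% of those covered in replicate 1 and 23.4% of those in replicate 2. A second strong H3K27ac peak in the window (12.2 and 8.92) lay at the end of Ahcyl2, the next gene. H3K27me3 at Smo was the weakest of the 9 genes in either library, at percentile 77.6 and 76.9. Whether the marks lay on the same chromosomes or in different cells of a pool cannot be told apart in these data.

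**Figure D3:**
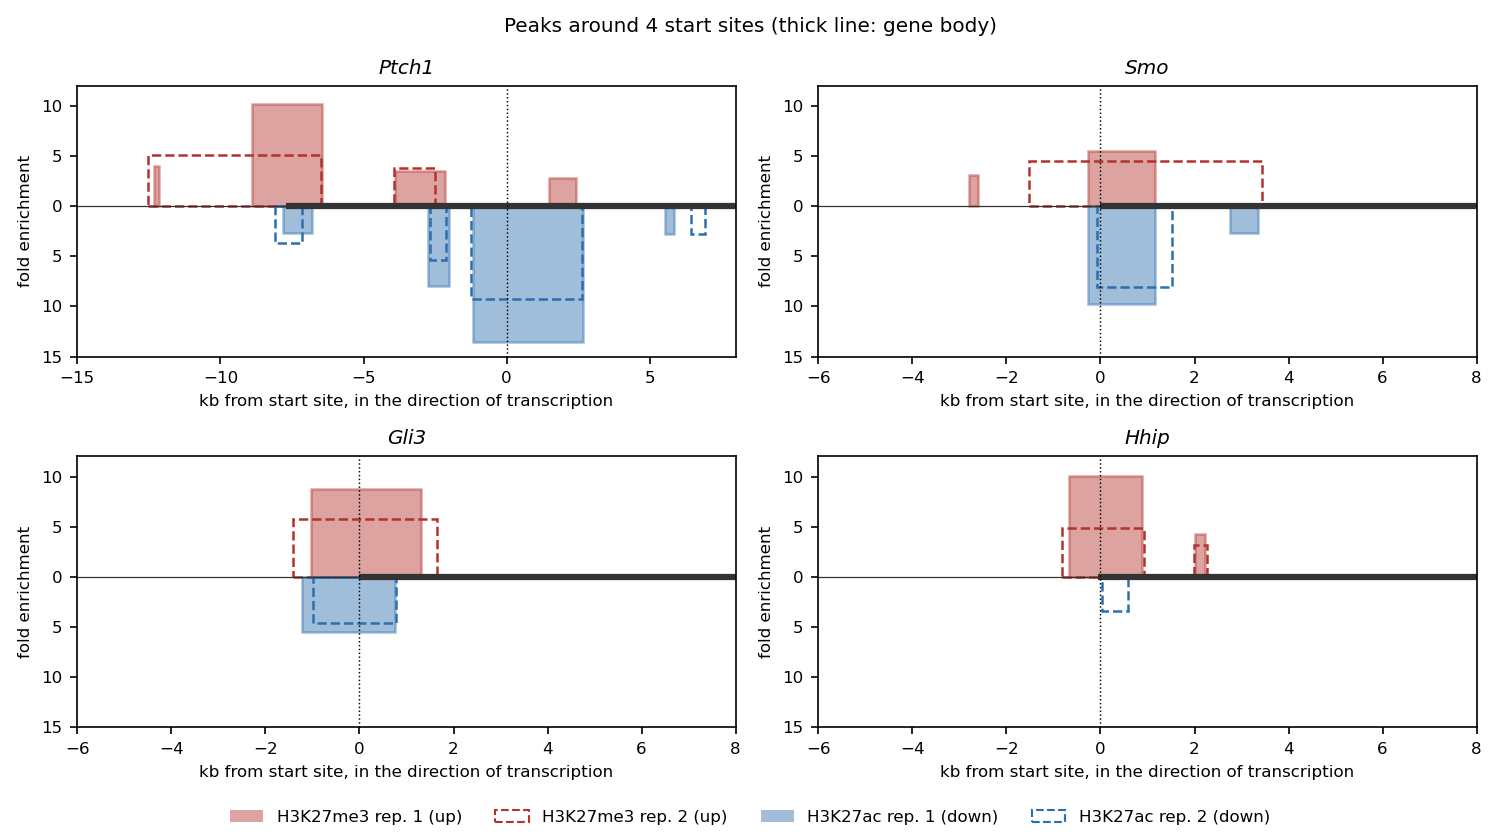
Fold enrichment (height) of each peak against kb from the start site for Ptch1, Smo, Gli3 and Hhip; H3K27me3 is drawn upward and H3K27ac downward, filled for replicate 1 and dashed for replicate 2, with the gene body as a thick line. At Ptch1 H3K27me3 is highest at the outer gene end (10.2 and 5.14) and H3K27ac at the inner start (13.5 and 9.3), while at Smo and Gli3 both cover the start.

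Hhip, a membrane protein that binds and holds Hedgehog ligands (chromosome 8, 79965850 to 80058060, minus strand), had a narrow H3K27me3 peak at its start. The peak was 1555 bp wide with a fold enrichment of 10.1 in replicate 1, and 1756 bp wide with 4.84 in replicate 2, and it covered the promoter in both. In fold it stood at percentile 96.3 and 82.4, but in width at 54.9 and 52.5, close to the middle of all genes. A small second H3K27me3 peak stood near 2 kb in both libraries (4.31 and 3.13). A single H3K27ac peak lay at 0.04 to 0.60 kb, inside the H3K27me3 peak at the start. It stood at 3.4 with a −log10 q of 1.92 and was in replicate 2 only, so Hhip was not counted as carrying H3K27ac.

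The 3 Gli genes carried both marks, with H3K27me3 in the upper part of its lists and H3K27ac in the lower part of its own. Gli1, the activator that is switched on by the signal (chromosome 10, 127329882 to 127341579), had H3K27me3 over 66.4% and 62.9% of its window. At the upper gene end the H3K27me3 peak stood at 7.13 and 6.05, and at the lower end, which overlaps the end of Arhgap9, at 7.79 and 5.54. H3K27ac near the upper end was low, at 3.19 and 3.39. All 2779 bp of the window with H3K27ac in both libraries, 100% of them, lay under H3K27me3. Of these, 1241 bp lay near the upper end of Gli1, 588 and 757 bp within Arhgap9, and 193 bp at an end of Inhbe. The highest H3K27ac fold in the window, 5.07 and 3.49, stood at percentile 17.6 and 8.96 and came from different peaks, both within neighbouring Arhgap9. These percentiles are over genes with a peak, and over all protein-coding genes, those without a peak ranked lowest, they were 38.2 and 33.2.

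Gli2, the main activator early in the response (chromosome 1, 118834061 to 119054405, minus strand), had many H3K27me3 peaks. Replicate 1 had 38 in the window and replicate 2 had 26, but 36 and 25 of them had a fold enrichment below 5. Of these 38, 16 overlapped a peak of replicate 2, and the shared bases made up 37.4% of those covered in replicate 1 and 49% of those in replicate 2. The strongest lay over the start in both libraries, from -2.26 to 2.16 kb (9.4) and from -2.27 to 6.12 kb (5.3). H3K27ac at the start was low, at 2.92 and 3.52, and the shared stretches lay on either side of the promoter, at -0.72 to -0.28 kb and 0.66 to 1.41 kb. A further H3K27ac peak inside the gene (4.46 and 4.37), at 5.52 to 5.80 kb in the bases common to both libraries, was the highest of the window, at percentile 12.8 and 19.3 over genes with a peak and 34.6 and 40.7 over all genes.

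Gli3, which acts mostly as the repressor (chromosome 13, 15463723 to 15730026, plus strand), showed the opposite layout of H3K27me3. In spite of a gene body of 266 kb, its start carried the single H3K27me3 peak common to both libraries, from -1.02 to 1.30 kb (8.78) and from -1.42 to 1.65 kb (5.78). H3K27ac covered nearly the same bases at 5.55 and 4.62. Peaks of all 4 libraries shared 1736 bp around the start. A further H3K27ac region of 1206 bp lay deep in the gene, at 73.51 to 74.71 kb from the start (4.48 and 3.63), with no H3K27me3 peak over it. Its highest H3K27ac stood at percentile 21.1 and 22.1 over genes with a peak and at 40.9 and 42.8 over all genes.

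**Figure D4:**
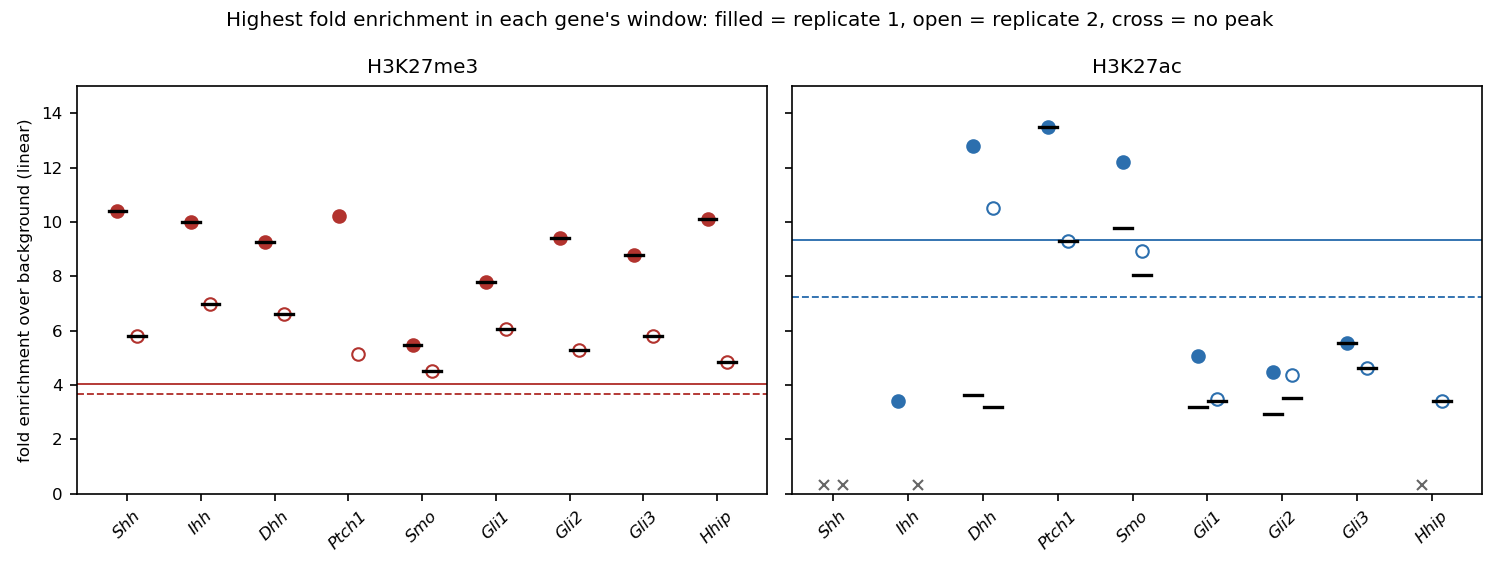
Highest fold enrichment (linear) of a peak in each gene's window, for H3K27me3 (left) and H3K27ac (right); filled circles are replicate 1, open circles replicate 2, crosses no peak, black bars the highest peak within 1 kb of the start, and solid and dashed lines the median of all genes with a peak in replicates 1 and 2. Every H3K27me3 circle lies above its line, and at Dhh the H3K27ac bars, 3.62 and 3.19, lie far below the circles, 12.8 and 10.5.

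Set side by side, the 9 genes had a median highest H3K27me3 fold of 9.4 and 5.78 in replicates 1 and 2, against 4.03 and 3.67 over the 15996 and 12502 genes with a peak. In each library the lowest member was Smo. For H3K27ac the 7 members with a peak in each library had a median of 5.55 and 4.62, against 9.33 and 7.23 over the 16413 and 16068 genes with a peak. Ptch1, Smo and Dhh stood above those medians and the others below, and for Dhh the value comes from the peaks at Rhebl1 and Kmt2d. The highest value of Smo is that of the Ahcyl2 peak, but its own start (9.79 and 8.06) was also above both medians.

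Genes that act before and after the 9 members were taken from lists of pathway genes. Of 12 genes for ligand release and reception, 11 carried H3K27me3 and 11 H3K27ac in the window, against 53.8% and 72.1% of all genes. At starts the counts were 9 and 8, against 26.7% and 61.5%, so that of H3K27ac was near the background. Limited to a −log10 q of 5 or more in the window, they were 1 and 7, near the 6.44% and 55.5% of all genes. By the mean rank of the fold over both libraries, H3K27me3 was highest at Lrp2, an endocytic receptor that binds Shh (10.1 and 6.31), and at Scube1, Scube2 and Scube3, secreted proteins that help release the ligands (7.5 and 4.6, 6.54 and 4.65, and 5.85 and 4.85). Scube2 was the 1 gene of the list without H3K27ac in both libraries. By the same rank H3K27ac was highest at the co-receptor genes Cdon (18.1 and 10.7, away from its start) and Boc (11 and 6.45), with Scube3 (16.4 and 12.2, but 3.38 and 3.1 at its start) and Hhat, which palmitoylates the ligands (8.64 and 7.12). Cdon was the 1 gene without H3K27me3 in both libraries.

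The intracellular part of the pathway carried H3K27ac throughout, with less H3K27me3. Of 23 genes for signal transduction and the cilium, 23 carried H3K27ac and 16 H3K27me3 in the window, against 72.1% and 53.8% of all genes. At starts the counts were 22 and 8, against 61.5% and 26.7%, and that of H3K27me3 was not far from the background. By mean rank H3K27ac was highest at 4 genes: Gsk3b, a kinase that marks Gli proteins for processing (24 and 13.6), Ift88, a transport protein of the cilium (21.7 and 11.4), Csnk1a1, a kinase of the pathway (17.3 and 14.2), and Prkacb, a catalytic subunit of protein kinase A (17.4 and 10.7). Among the genes with the highest H3K27me3 were Gnas, which encodes a stimulatory G protein subunit (8.6 and 4.85), Kif7 (8.25 and 6.32) and Prkacb (5.82 and 4.59). At Prkacb it lay away from the start, with no H3K27me3 peak within 1 kb of a start in either library. Gnas had 6.73 and 4.5 near its start. Kif7, a kinesin that regulates Gli proteins at the cilium tip, had 4.51 and 3.4 at its start. With peaks limited to a −log10 q of 5 or more, H3K27me3 was at 2 of the 23 genes, near the 6.44% of all genes, and H3K27ac at 18, against 55.5%.

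Known targets of the signal in various tissues all carried H3K27me3. It was at 20 of 20 genes in the window and at 19 within 1 kb of a start, against 53.8% and 26.7% of all genes. H3K27ac was at 14 and 13, close to the background of 72.1% and 61.5%. Limited to a −log10 q of 5 or more, H3K27me3 was at 12 of the 20, against 6.44%, and H3K27ac at 7, against 55.5%. By mean rank H3K27me3 was highest at Bmi1, Nkx6-1 (15.8 and 8.07), Foxa2 and Foxf2 (12.3 and 8.28). Nkx6-1, Nkx2-2, Foxa2 and Olig2 are transcription factors of the ventral neural tube, and Foxf2 and Osr1 of the mesenchyme. Foxa2 (13.6 and 8.53), Nkx2-2 (15.3 and 7.09), Osr1 (9.61 and 5.79) and Grem1, an antagonist of bone morphogenetic proteins (11.6 and 7.63), had no H3K27ac peak in either library. Bmi1, a Polycomb gene, reached 18 and 10.2 in its window but 6.12 and 3.87 near its start. Its H3K27ac was also the highest of the list (20.1 and 13.5, but 12.2 and 7.55 near its start). The other high H3K27ac values were at Foxm1, a cell cycle regulator (12.8 and 9.84), and Rab34, a GTPase of cilium formation (11.1 and 9.33, but 8.26 and 6.41 near its start). Olig2 was also high (10.9 and 8.11) and carried H3K27me3 at its start as well (8.71 and 5.39). Polycomb is known to bind many developmental regulators, and whether these targets differ from other such genes was not tested.

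**Figure D5:**
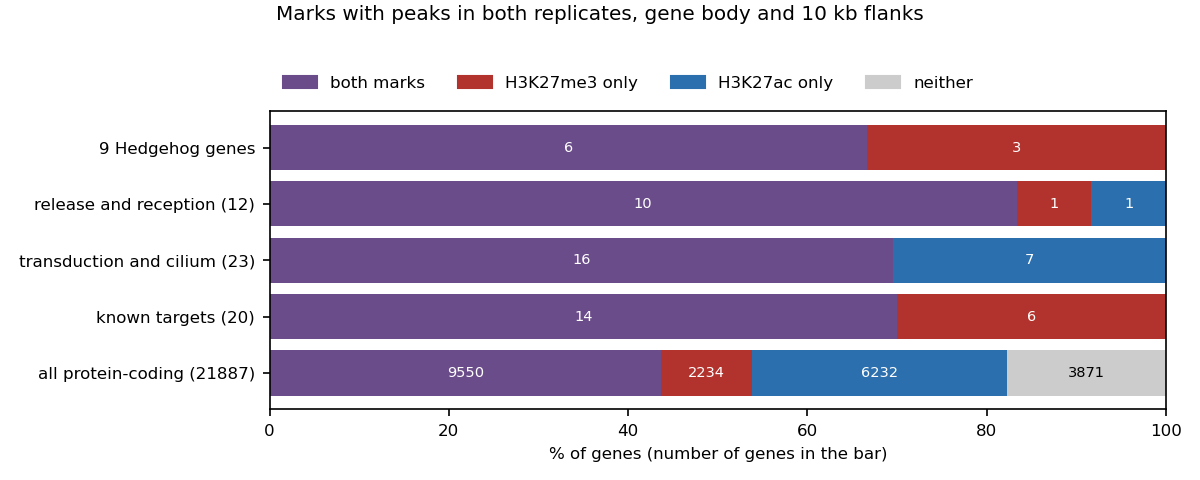
Share of genes (in %, number of genes in each bar) with peaks in both libraries of both marks (purple), H3K27me3 only (red), H3K27ac only (blue) or neither (grey), in the gene body and 10 kb flanks. H3K27me3 in both libraries without H3K27ac in both is found at 3 of the 9 Hedgehog genes and 6 of the 20 targets. These counts include genes with an H3K27ac peak in a single library, for example Ihh, Hhip and Foxf2. Of all 21887 protein-coding genes, 11784 carried H3K27me3 in both libraries, and 9550 of these carried H3K27ac in both as well. In each list fewer genes had no H3K27ac peak in either library, Shh alone among the Hedgehog genes. H3K27me3 in both libraries with no H3K27ac peak in either was held by 7.19% of all genes.

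Genes elsewhere in the genome with the most similar values were found by the Euclidean distance over 8 percentile ranks, the highest fold and the share of the window covered in each of the 4 libraries. For Shh they included Ntsr1 and Bhlhe23, at distances of 1.73 and 1.91 percentile points. Neither had an H3K27ac peak in the window. Their H3K27me3 folds were 9.34 and 5.85 for Ntsr1 and 9.93 and 6.37 for Bhlhe23. For Ptch1 they included Micos10 and Uvssa, at larger distances of 9.97 and 13.9. Micos10 had H3K27me3 at 8.85 and 5.36 and H3K27ac at 15.3 and 9.04.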

How the data were processed

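Peaks of 4 libraries were used, H3K27me3 and H3K27ac with 2 replicates each, and no list of the 3 input libraries was analysed here. The submitters' processing notes name fastp, Bowtie, Picard, MACS2 and the build GRCm38 (mm10), while tool versions are not given in the sources used here. Broad peaks were called per library by the authors, who deposited for each peak a fold enrichment (a linear ratio over background), a −log10 p, a −log10 q and a score, which for nearly every peak is the −log10 q times 10 without its decimals. The smallest −log10 q was close to 1, a q of 0.1. In the broad format of MACS2 such values are averages over the peak.

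Groups and replicate numbers came from the titles and the antibody labels. Gene positions came from RefSeq GRCm38.p6, and starts from its promoter table, which held 17492 of the 21887 protein-coding genes (autosomes, X and Y). For other genes either gene end was used. Windows, overlaps and percentiles were computed in Python 3.11.15 with pandas 2.3.3, after the overlap code was tested on simulated peaks. A percentile is the share of genes with a peak in that library whose highest fold (or widest peak) is lower. Genes of equal value were shared evenly between lower and higher, and the gene itself was left out. Named genes were the 9 members, up to 4 per list and mark by mean rank of fold, genes with H3K27me3 and no H3K27ac peak, neighbours under a peak and the 3 nearest genes of Shh and Ptch1, of which some are not reported here. The members and lists were chosen with earlier results of these data known. Alternatives changed the −log10 q, the window, the replicate rule and the covered bases. The labels do not say whether pools with the same number shared mice. The p and q values are the authors' own, not tests between groups.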

Additional observations from a re-analysis of the deposited data

How the results depend on the processing

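No paired analysis was possible because no result comes from a test between groups and the replicate numbers of the marks do not name shared pools of mice. Under the alternatives the count of members with H3K27me3 stayed at 8 or 9 of 9, except with a −log10 q of 5 or more. The share of all genes moved under the same rules, from 26.7% within 1 kb of the start to 78.2% with 50 kb flanks. At a −log10 q of 5 or more, 5 members had H3K27me3, against 6.44% of all genes, and 3 had H3K27ac, against 55.5%. Both marks were then at 1 (Dhh, whose H3K27ac then comes only from the peaks at Rhebl1 and Kmt2d), against 2.36%. The count with H3K27ac was 6 to 8 under the other rules. Without replicate 1 of each mark Hhip joined (7, against 73.4% of all genes). Without replicate 2 Ihh joined (7, by its peak at the end of Cfap65, against 75%). Both joined with a peak in either library (8, against 76.3%), and Shh and Ihh joined with 50 kb flanks (8, against 80.3%). With a −log10 q of 5 or more, the release and reception list of 12 had 1 gene with H3K27me3 and 7 with H3K27ac. These counts were near the 6.44% and 55.5% of all genes. At that threshold the transduction list had 2 with H3K27me3, and the targets 12 and 7. The transduction list of 23 had 9 genes with H3K27me3 over gene bodies alone, against 37.4% of all genes. Within 1 kb of the start it had 8, against 26.7%. In the main window it had 16, against 53.8%, so part of that count lies in the flanks, and the share of all genes fell as well. A mean fold weighted by covered bases in place of the highest changed 11 of 32 values by more than the SD between replicates. The percentiles changed by at most 0.654 points without olfactory and vomeronasal receptor genes, and by at most 24.5 when genes without a peak were ranked lowest. Depth is unknown, so the −log10 q thresholds do not compare libraries.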

Other observations

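Beyond the windows, the nearest H3K27ac region found in both libraries was 42.4 kb from Shh, inside the gene body of Rbm33 (fold enrichment 3.87 and 3.08), and 43.6 kb from Ihh, over Cryba2 and at an end of Cfap65 (5.24 and 4.59). For Hhip it was 254 kb away, at the ends of Abce1 and Anapc10 (16.9 and 13). These neighbours were named after their values were seen, and whether any of the regions acts on a Hedgehog gene was not tested.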
